A study of Mus musculus with 6 samples.

Results

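Integrins and laminins, the receptors and the sheet-forming proteins that hold heart muscle cells to their basement membrane, were followed in adult mouse hearts with and without an activated form of YAP in the cardiomyocytes. The members were taken by symbol from the deposited table of UMI counts (a UMI marks 1 captured transcript): the genes named Itga, Itgb, Lama, Lamb or Lamc with a number, or with the letters used for integrin alpha subunits. This gave 36 of the 22281 features, made up of 18 integrin alpha subunits, 8 integrin beta subunits and 10 laminin chains. The rule itself uses symbols and no measured value.

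An integrin is a pair of an alpha and a beta subunit in the cell membrane. The alpha subunit decides most of what the pair binds, and the beta subunit carries the signal and the pull of the matrix to the actin cytoskeleton through adaptor proteins. Laminins are cross-shaped trimers of an alpha, a beta and a gamma chain, which form the network of the basement membrane around each cardiomyocyte, and in striated muscle the chief integrin that binds them is the pair of Itga7 and Itgb1.

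The study used Drop-seq, in which each cell is lysed in a droplet with a barcoded bead that captures transcripts by their poly(A) tails. YAP5SA hearts were Yap5SA+/tg; Myh6-MCM, so that after tamoxifen a YAP that the Lats1/2 kinases cannot phosphorylate was made in cells with an active Myh6 promoter, the cardiomyocytes. Control hearts carried Myh6-MCM, the tamoxifen-inducible Cre, without the YAP5SA transgene. All mice were adult and received tamoxifen, and all hearts were digested with collagenase on a Langendorff apparatus. YAP5SA tissue-1 and tissue-2 were libraries of dissociated heart tissue and YAP5SA enriched was one of cardiomyocytes enriched by settling, against Control tissue-2 and tissue-3 and Control enriched. The sources used here do not say how many animals went into a library, so p-values measure only the spread between libraries, which may be technical.

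The libraries held 21706 cells and 50784032 UMIs, with totals of 3382656 to 13483791 UMIs, of which the 36 members took 101563. Of 21696 distinct barcodes, 10 occurred in more than 1 library. Cardiomyocytes (the authors' clusters CM1, CM2, CM3 and YAP5SAcm) numbered 343 (tissue-1), 282 (tissue-2) and 1004 (enriched) in YAP5SA libraries, against 576 (tissue-2), 1173 (tissue-3) and 1068 (enriched) in Control libraries. All 8 cardiomyocyte markers were found in them, at a summed level of 27010 to 36373 CPM (counts per 1e6 UMIs of the library's cardiomyocytes; unscaled where so called, otherwise scaled by TMM factors) in YAP5SA and 53328 to 69578 CPM in Control. Their median percent.mito, the share of UMIs from mitochondrial genes, was 8.30 to 9.92 in YAP5SA libraries and 8.10 to 16.7 in Control libraries. Where genes overlap, 4 libraries carry a joined gene name in place of the single ones; YAP5SA enriched and Control tissue-3 do not, which touches Itgam alone among the members. Below, library values are always given in the order tissue-1, tissue-2 and enriched for YAP5SA, and tissue-2, tissue-3 and enriched for Control.

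The first comparison asked how the members differed between YAP5SA and Control cardiomyocytes. Among others, YAP5SA cardiomyocytes held more RNA of the laminin-binding subunits Itga7 and Itga3 and of the laminin chains Lamc1 and Lama4. They also held more of the matrix-binding subunits Itgav, Itga1 and Itgb5. The leukocyte subunit Itgb2 passed the test on only 34 UMIs in YAP5SA and 8 in Control. Its call was lost without any 1 library other than Control tissue-2, and the part of macrophage RNA in it was not tested. No member passed the test as lower, and Itgb1, the beta subunit that most of these alpha subunits pair with, did not pass it in either direction. In edgeR's quasi-likelihood test on UMIs summed per library (Benjamini-Hochberg adjusted p under 0.05), 9 of the 20 members with enough counts to be tested were higher and 0 were lower, against 13.9% higher and 12.6% lower among all 10924 genes tested. At an unadjusted p under 0.05 there were 12 of the 20 members, each of them higher, against 4470 of the 10924 genes. DESeq2 called 11 members higher and 0 lower, against 15.1% of genes higher. The libraries of the genotypes did not overlap for 10 members, all higher, against 48.1% of all genes that did not overlap, 25.9% higher and 22.2% lower. A gene can enter the test through its level in 1 genotype alone, so these counts describe the tested members and not all 36.

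The median log2 fold change over the 20 was 1.53, against 0.04 over all genes. It was 1.90 over 8 alpha subunits, 0.80 over 4 beta subunits and 0.08 over 8 laminin chains. With library totals as the only scaling, the median of all genes moves to 0.88 and 13 members were called higher, against 37.7% of genes. The count of 9 fell to 4 without YAP5SA tissue-1 (4.02% of genes higher), to 1, Itga3, without YAP5SA tissue-2 (1.67% of genes higher), and to 0 of 19 without the cells of cluster YAP5SAcm, a cluster the authors drew from these transcripts; there edgeR called 0.18% of 9430 genes higher, while 1684 had an unadjusted p under 0.05. As counts were summed over cells, more cells with the RNA and more RNA per cell cannot be told apart in these values.

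**Figure D1:**
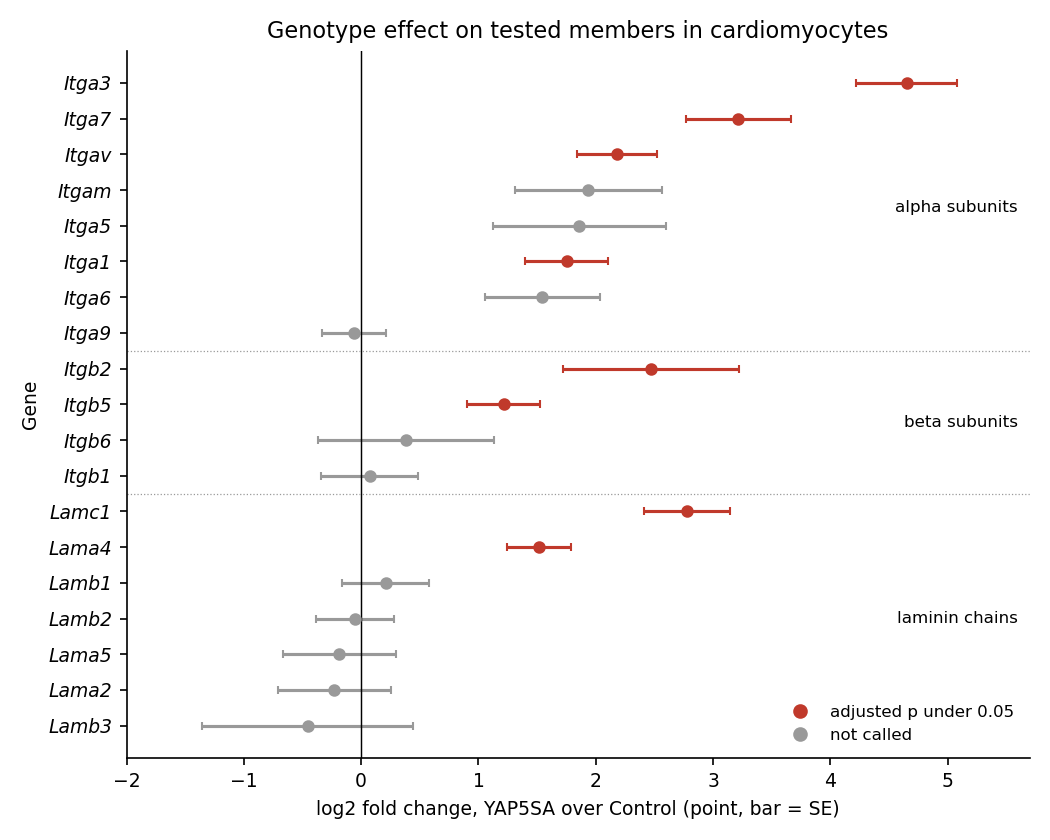
Log2 fold change of tested members in cardiomyocytes, YAP5SA over Control, from edgeR (point) with its standard error (bar), grouped into alpha subunits, beta subunits and laminin chains. Red marks the members called at an adjusted p under 0.05; all of those shown lie right of 0, from 1.21 for Itgb5 to 4.65 for Itga3.

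Among the alpha subunits, 4 of 8 tested were higher. Itga7, the alpha subunit of the muscle laminin receptor, had 811, 1459 and 487 CPM (TMM-scaled) in YAP5SA libraries, against 139, 76.9 and 67.5 CPM in Control libraries. Its lowest YAP5SA library lay above its highest Control library, within the tissue preparation and within the enriched preparation alike. The log2 fold change was 3.21 (SE 0.45, edgeR adjusted p = 0.00608), on 6337 UMIs in YAP5SA and 923 in Control. Smooth muscle markers moved with the genotype too: the 5 markers summed to 3478, 3105 and 2960 unscaled CPM in YAP5SA cardiomyocytes and to 297, 47.0 and 36.8 in Control cardiomyocytes, against 6722 to 11418 in YAP5SA and 7633 to 9082 in Control smooth muscle cells. Those smooth muscle cells held Itga7 at 141 ± 88.1 unscaled CPM in YAP5SA (SD, n = 3 libraries), below the 1259 ± 754 of YAP5SA cardiomyocytes. The part of smooth muscle RNA in the change of Itga7 was not tested.

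Itga3, which pairs with Itgb1 into a laminin receptor best known from epithelia, had 94.9, 122.9 and 35.7 CPM in YAP5SA libraries, against 5.64, 2.299 and 1.99 CPM in Control libraries. YAP5SA enriched was the lowest of its genotype and still lay above every Control library. Its log2 fold change of 4.65 (SE 0.43, edgeR adjusted p = 0.00220) was the largest of the tested members. Epicardial cells also express Itga3, and the summed level of 6 epicardial markers in the cardiomyocytes was 73.7, 62.8 and 36.9 unscaled CPM in YAP5SA and 1.76, 4.25 and 2.43 in Control. In the epicardial cells themselves that sum was 4725 to 6311 in YAP5SA and 5603 to 7630 in Control. Itga3 stood at 116.4 ± 67.6 unscaled CPM in YAP5SA cardiomyocytes (SD, n = 3 libraries), against 50.9 ± 37.1 in YAP5SA epicardial cells (SD, n = 3 libraries). The part of epicardial RNA in the change of Itga3 was not tested.

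Itgav, the subunit of receptors for vitronectin and fibronectin, had 49.8, 35.9 and 19.8 CPM in YAP5SA libraries, against 11.3, 6.69 and 4.96 CPM in Control libraries (log2 change 2.18, SE 0.34, edgeR adjusted p = 0.00832). Itga1, which binds collagen and laminin with Itgb1, had 29.6, 30.3 and 34.4 CPM in YAP5SA libraries, against 13.6, 8.36 and 6.45 CPM in Control libraries (1.75, SE 0.35, edgeR adjusted p = 0.0144). Neither gene's genotypes overlapped, and the 3 YAP5SA libraries lay closer together for Itga1 than for Itgav. Itga1 stood at 122 ± 59.4 unscaled CPM in YAP5SA smooth muscle cells, against 41.7 ± 1.22 in YAP5SA cardiomyocytes (SD, n = 3 libraries each), and the part of smooth muscle RNA in its change was not tested.

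The other 4 tested alpha subunits did not pass. Itga6, a laminin-binding subunit, had 12.8, 15.7 and 15.9 CPM in YAP5SA libraries, against 3.98, 8.99 and 2.48 CPM in Control libraries; the genotypes did not overlap, but the log2 fold change of 1.54 (SE 0.49) missed the threshold (edgeR adjusted p = 0.0549). Itga5, the fibronectin receptor subunit, overlapped, with 18.9, 34.8 and 12.9 CPM in YAP5SA libraries against 14.6, 1.67 and 2.98 CPM in Control libraries (1.86, SE 0.74, edgeR adjusted p = 0.105). Itga9, which binds tenascin and osteopontin among others, had 24.6 to 32.3 CPM in YAP5SA libraries and 24.9 to 32.8 CPM in Control libraries, at a log2 fold change of -0.06 (SE 0.27). Itgam, the leukocyte subunit also known as CD11b, had 11.4, 16.8 and 1.54 CPM in YAP5SA libraries, against 6.30, 2.299 and 0 CPM in Control libraries (1.94, SE 0.63, edgeR adjusted p = 0.0581). Its counts depend on how overlapping genes were named and are uncertain in every cell type.

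Among the beta subunits, Itgb1 had 522, 632 and 592 CPM in YAP5SA libraries, against 867, 389 and 431 CPM in Control libraries. The YAP5SA values lay between the Control values, and the log2 fold change of 0.07 (SE 0.41, edgeR adjusted p = 0.915) had no steady sign, with -0.62 in the 4 libraries with joined names. The alpha subunits Itga7, Itga3 and Itga1 changed in libraries where their shared partner did not pass the test; the difference between partners was not tested.

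Itgb5, which pairs with Itgav into a vitronectin receptor, had 90.9, 134.1 and 94.4 CPM in YAP5SA libraries, against 54.1, 33.9 and 49.6 CPM in Control libraries (log2 change 1.21, SE 0.31, edgeR adjusted p = 0.0292). It was the smallest change among the called members, with no overlap between the genotypes. Itgb2, the beta subunit of the leukocyte integrins, passed the test at 2.47 (SE 0.75, edgeR adjusted p = 0.0480) on only 34 UMIs in YAP5SA and 8 in Control, at 3.37, 5.05 and 3.84 CPM in YAP5SA libraries against 1.33, 0.836 and 0 CPM in Control libraries. The 9 macrophage markers summed to 329.9, 827 and 435 unscaled CPM in YAP5SA cardiomyocytes, against 252, 121 and 19.5 in Control cardiomyocytes, and to 18009 to 19827 in YAP5SA macrophages. Macrophages held Itgb2 at 198 ± 22.6 unscaled CPM in YAP5SA (SD, n = 3 libraries) and at 83.7 and 158 in the 2 Control libraries with macrophages; in cardiomyocytes with no UMI of macrophage and fibroblast markers, Itgb2 had too few counts to be tested. Such cells numbered 96, 37 and 460 in YAP5SA libraries and 176, 371 and 928 in Control libraries, so few were left in YAP5SA tissue-2. In those cells 6 of 15 members tested were higher and 0 lower, against 8.89% of genes higher and 426 of 6693 lower. Itga1, Itga3, Itga7, Itgb5 and Lamc1 were among the 6. Itgav and Lama4 were tested there, kept their direction and did not pass edgeR's test. The Itgb2 call was lost without any 1 library other than Control tissue-2. Itgb6, the epithelial subunit that binds latent TGF-beta, overlapped, with 24.9, 15.7 and 11.1 CPM in YAP5SA libraries and 2.32, 16.7 and 21.3 CPM in Control libraries (0.38, SE 0.75).

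**Figure D2:**
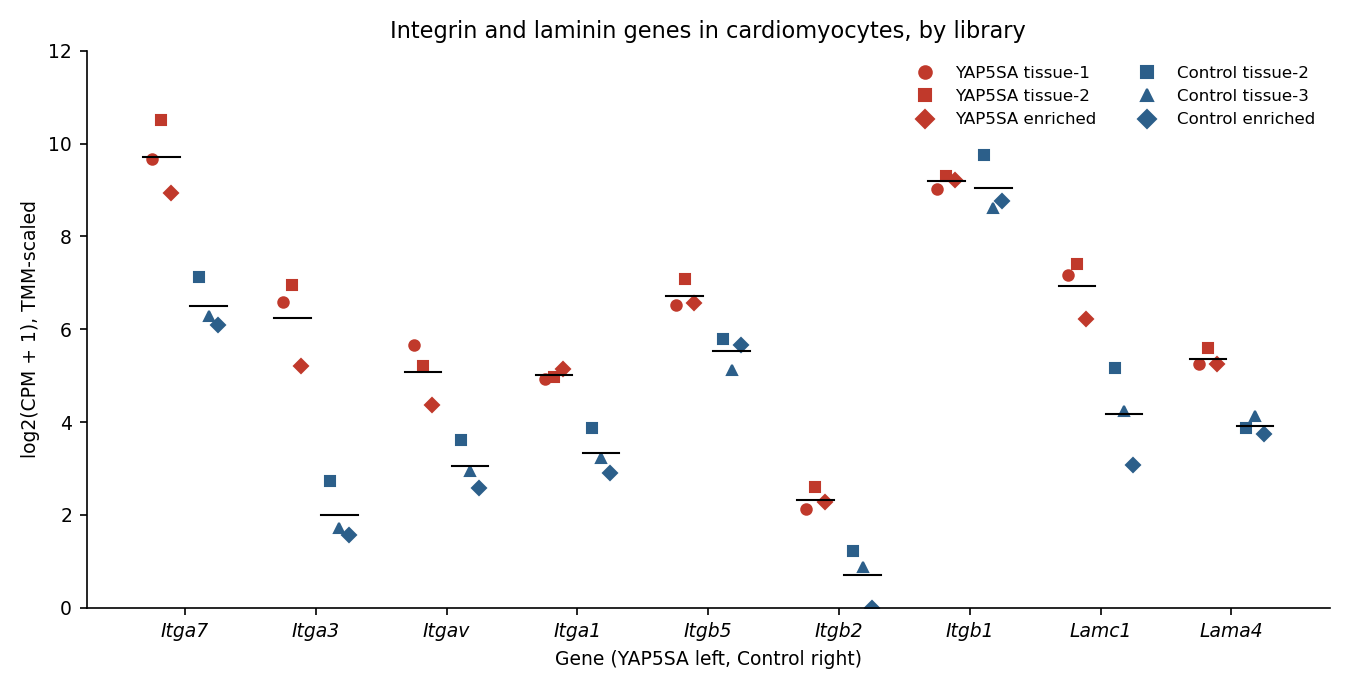
Level of called members and of Itgb1 in cardiomyocytes on the log2(CPM + 1) scale (TMM-scaled), 1 point per library, YAP5SA (red) left of Control (blue), black lines marking the means of 3 libraries. For each called gene shown the lowest YAP5SA point lies above the highest Control point, while for Itgb1 the YAP5SA points (522 to 632 CPM) fall inside the Control range (389 to 867 CPM).

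The promoters of Itga3 and Itgb1 are shown because Itga3 changed most and Itgb1, its partner, did not pass the test. The sequences are RefSeq's, on GRCm38.p6, and run from 250 bases before the start of the gene to 50 after it, 5′ to 3′ along the gene. Capitals mark GGAATG or its reverse complement CATTCC, the core of the motif that TEAD factors, the DNA-binding partners of YAP, are known to bind.
Itga3 (chr11:95076665-95076964, minus strand): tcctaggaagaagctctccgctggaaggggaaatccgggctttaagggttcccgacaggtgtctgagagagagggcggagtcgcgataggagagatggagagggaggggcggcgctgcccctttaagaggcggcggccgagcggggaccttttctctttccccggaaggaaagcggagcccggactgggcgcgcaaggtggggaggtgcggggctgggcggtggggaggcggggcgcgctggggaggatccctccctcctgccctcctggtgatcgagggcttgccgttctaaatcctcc
Itgb1 (chr8:128685404-128685703, plus strand): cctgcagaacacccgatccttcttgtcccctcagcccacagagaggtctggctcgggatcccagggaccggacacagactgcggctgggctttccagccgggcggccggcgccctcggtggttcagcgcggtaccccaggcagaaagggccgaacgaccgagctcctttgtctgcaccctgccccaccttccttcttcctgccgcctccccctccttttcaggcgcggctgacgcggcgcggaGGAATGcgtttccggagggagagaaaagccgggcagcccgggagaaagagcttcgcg
The motif was searched on both strands in the 26 promoters listed for 23 of the 36 members. It was found in 3 of them (11.5%): Itgb1, where it starts at position -7 from the start, Itga10 and 1 of the starts of Lamb3. It was found in 14.7% of all 32851 promoters. None of the 5 promoters listed for 4 of the 9 called members (Itga1, Itga3, Itgav and Itgb5) held these letters in this window.

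Among the laminin chains, the gamma chain Lamc1 and the alpha chain Lama4 were higher. Lamc1, the gamma chain shared by most laminins of muscle, had 143, 168 and 73.4 CPM in YAP5SA libraries, against 35.2, 17.97 and 7.44 CPM in Control libraries, a log2 fold change of 2.78 (SE 0.36; edgeR adjusted p = 0.00514). Lama4, the alpha chain of vascular and embryonic laminins, had 37.0, 47.7 and 37.1 CPM in YAP5SA libraries, against 13.6, 16.5 and 12.4 CPM in Control libraries (1.52, SE 0.27, edgeR adjusted p = 0.0111). In both the genotypes did not overlap.

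Chains that build laminins with these, Lama2, Lama5, Lamb1, Lamb2 and Lamb3, did not pass the test. Lama2, the alpha chain of the main muscle laminin, which is lost in a congenital muscular dystrophy, had 22.1 to 26.9 CPM in YAP5SA libraries and 10.9 to 38.7 CPM in Control libraries (log2 change -0.23, SE 0.48). The beta chains Lamb1 (25.3 ± 3.99 CPM in YAP5SA, 21.8 ± 8.74 in Control; SD, n = 3 libraries each) and Lamb2 (93.7 ± 10.9 in YAP5SA, 99.7 ± 35.8 in Control; SD, n = 3 libraries each) differed by 0.21 (SE 0.37) and -0.05 (SE 0.33). Lama5 stood at -0.19 (SE 0.48) and Lamb3, a beta chain known mainly from epithelia, at -0.46 (SE 0.90), with Control libraries at 1.99, 16.9 and 24.8 CPM. The sign of these small values, Lamb1 aside, turned positive with library totals as the only scaling. In each of the 5 chains the libraries of the genotypes overlapped.

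The remaining 16 members had at most 29 UMIs each over all cardiomyocytes and were not tested. They were the alpha subunits Itga2, Itga2b, Itga4, Itga8, Itga10, Itga11, Itgad, Itgae, Itgal and Itgax, the beta subunits Itgb3, Itgb4, Itgb7 and Itgb8, and the chains Lama3 and Lamc3. Of these, Itga8, an RGD-binding subunit of smooth muscle and stroma, had 21 UMIs in YAP5SA cardiomyocytes and 1 in Control cardiomyocytes; smooth muscle cells held it at the highest mean of the classes, and the part of their RNA, whose markers differed as given for Itga7, was not tested.

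The 17 clusters were then examined to see in which cells the raised RNA lay. Cluster YAP5SAcm held 896 of the 1629 cardiomyocytes of YAP5SA libraries and 99 of the 2817 of Control libraries. In YAP5SA it held 55.0% of the cardiomyocytes and 59.2% of their UMIs, but 95.4% of the UMIs of Itga3, 89.7% of those of Itga7 and 88.8% of those of Lamc1. For Itgb1 the share was 62.4%, and for Itgb2 it was 50%, close to the share of cells. These shares are a description, since the cluster was drawn from the same transcripts.

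Within YAP5SAcm, Itga7 had 1519, 2560 and 936 unscaled CPM in YAP5SA libraries, against 507, 108 and 148 CPM in the few Control cells of the cluster. In CM1 it had 236, 369 and 136 CPM in YAP5SA libraries, against 94.6, 36.7 and 34.2 CPM in Control libraries, and the genotypes did not overlap in CM2 and CM3 either. In the same cluster Itga3 had 177, 227 and 76.7 CPM in YAP5SA libraries, against 47.9, 0 and 0 CPM in Control libraries.

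In edgeR's test of cells of the same cluster, 3 of 16 members tested in YAP5SAcm were higher in YAP5SA, against 5.12% of all genes tested there that were higher and 2.6% that were lower. Among them were Itga3 (log2 fold change 2.54, SE 0.64, adjusted p = 0.00682) and Itga7 (2.44, SE 0.62, adjusted p = 0.00770). The Control side rested on 7 UMIs of Itga3 and 87 of Itga7 in 99 cells. No member passed when any of the 3 YAP5SA libraries was left out, and 1 passed without Control tissue-3. In CM1, CM2 and CM3, edgeR called 0 of 16, 0 of 2 and 0 of 7 members, where at an unadjusted p under 0.05 there were 4, 1 and 2, against 1093 of 8236, 534 of 2050 and 686 of 4075 genes. Among all genes 0.0243% were higher and 0% lower in CM1, 3.12% and 1.32% in CM2, and 0.344% and 0% in CM3. Itga7 had the smallest p in each, at 1.75 (SE 0.40), 1.95 (SE 0.61) and 1.98 (SE 0.52) with edgeR adjusted p of 0.264, 0.0789 and 0.158.

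**Figure D3:**
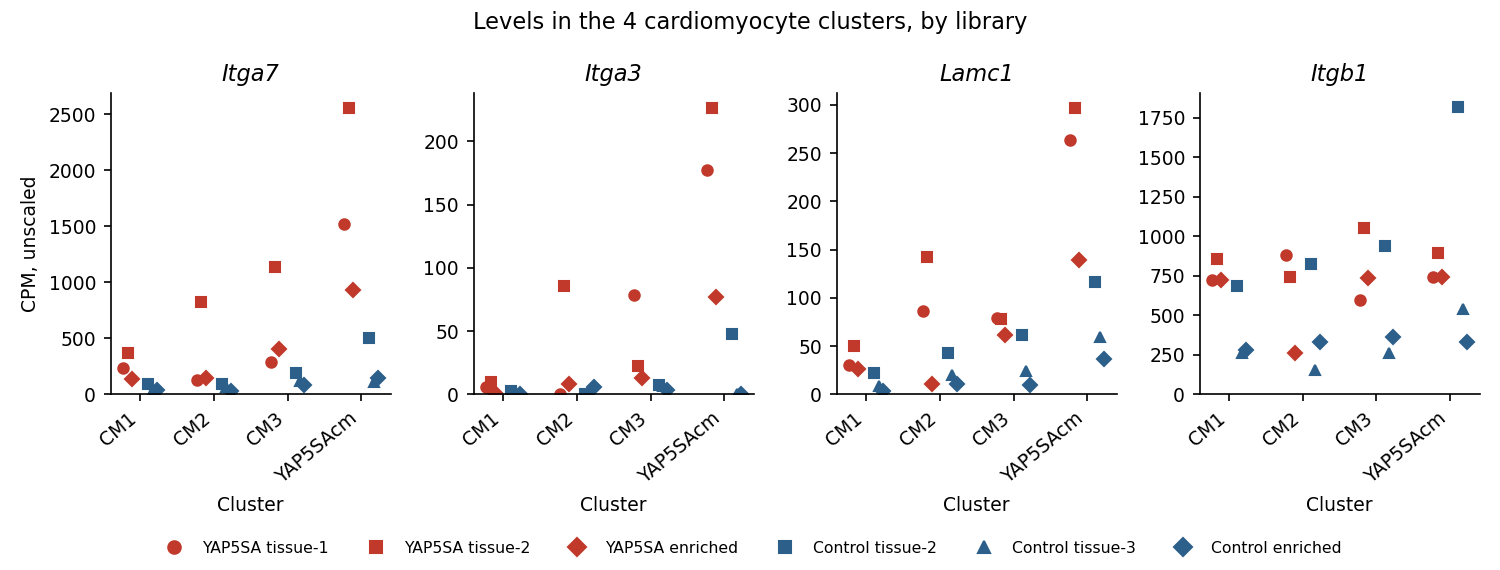
Levels (unscaled CPM) of Itga7, Itga3, Lamc1 and Itgb1 in the 4 cardiomyocyte clusters, 1 point per library with at least 10 cells of the cluster, YAP5SA (red) left of Control (blue). Itga7 is higher in every YAP5SA library than in every Control library of CM1, and reaches 936 to 2560 CPM in the YAP5SA libraries of YAP5SAcm. Itgb1 in CM1 lies at 721 to 859 CPM in YAP5SA libraries and at 260.2 to 686 CPM in Control libraries, and it overlaps in YAP5SAcm. These unscaled values are not on the TMM scale of edgeR's test, which called no member in CM1.

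The share of cells with a UMI was counted after thinning each cell to 1000 UMIs, leaving out shallower cells, since depth differed. Itga7 was seen in 50.7%, 65.7% and 36.5% of the cardiomyocytes of YAP5SA libraries, against 13.2%, 7.01% and 5.43% in Control libraries. Without thinning, the shares were 66.2%, 84.8% and 59.4% in YAP5SA and 41.5%, 26.1% and 11.9% in Control. In macrophages, which should lack Itga7, the thinned share was 1.82% in YAP5SA libraries together (exact Clopper-Pearson 95% interval 1.48% to 2.22%) and 0.278% in Control libraries together (0.00703% to 1.54%), at median depths of 1474 and 983 UMIs, against 2459 and 3235 in cardiomyocytes. These intervals cover counting error only.

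Itga7 was also more frequent in YAP5SA cells outside the cluster YAP5SAcm. In CM1 to CM3 together the thinned share was 21.3%, 42.9% and 16.3% in YAP5SA libraries, against 11.8%, 6.73% and 5.32% in Control libraries, with no overlap. In YAP5SAcm it was 68.3%, 73.6% and 56.9%, against 28.9%, 19.2% and 12.5%. For Itga3 the share in all cardiomyocytes was 11.5%, 18.4% and 4.95% in YAP5SA libraries, against 0.714%, 0.433% and 0.0953% in Control libraries, where it lay near the 0.211% of YAP5SA macrophages and the 0.278% of Control macrophages. Taken over all clusters, Itga3 in Control cardiomyocytes was not told apart from background at this depth. The Control macrophage share rested on 1 of 360 thinned cells, and a difference between libraries was not tested. Within YAP5SAcm it was seen in 3 of 45 thinned cells of Control tissue-2 (6.67%, exact interval 1.40% to 18.3%). In Control tissue-3 and Control enriched the share there was 0%. The tissue-2 interval lay above that of YAP5SA macrophages (0.105% to 0.377%) but overlapped that of Control macrophages (0.00703% to 1.54%). These intervals too cover counting error over cells and not the spread between libraries.

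The next comparison followed the members across the 8 classes of heart cells. Each class carried its own set, as a description with no test, since the clusters were drawn from these transcripts. Means below are unscaled CPM over libraries of both genotypes. The classes differ in depth and in number of cells.

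Cardiomyocytes had the highest mean of Itga7 (666 ± 806 CPM, SD, n = 6 libraries) over both genotypes, ahead of the 124.5 CPM of epicardial cells, but this order rests on the YAP5SA libraries. In YAP5SA libraries the means were 1259 CPM in cardiomyocytes and 127 in epicardial cells, whereas in Control libraries cardiomyocytes (73.6 CPM) lay below epicardial (121 CPM) and smooth muscle cells (77.2 CPM), within the spread of these libraries. They were also highest for Itgb6 (16.4 ± 11.2, n = 6) and Lamb3 (12.3 ± 8.09, n = 6), and for Itgad at under 1 CPM.

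Fibroblasts led 8 members, among them the laminin chains Lamb1 (623 ± 128 CPM, n = 6), Lamc1 (486 ± 105), Lama4 (456 ± 23.7) and Lama2 (317 ± 205). Their Lamc1 did not stand far apart between the genotypes, at 487 ± 78.5 CPM in YAP5SA and 486 ± 147 in Control (SD, n = 3 libraries each), while YAP5SA cardiomyocytes had 175.4 ± 79.3 and Control cardiomyocytes 16.1 ± 13.5. The 8 fibroblast markers summed to 537, 587 and 624 unscaled CPM in YAP5SA cardiomyocytes and to 224, 627 and 138 in Control cardiomyocytes, so that they overlapped, against 32179 to 34158 in YAP5SA fibroblasts.

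Endothelial cells led Itga6 (190 ± 35.9 CPM, n = 6) and Itga1 (150.3 ± 45.9), and smooth muscle cells led Itgb1 (1349 ± 275, n = 6) and Itga8 (66.0 ± 25.2). Endocardial cells led Itgb3 (44.3 ± 31.0, n = 6), the beta subunit of the vitronectin and platelet receptors, and Itga9. Epicardial cells led 7 members, among them Itgav (88.8 ± 23.3, n = 5 libraries), Lama5 (67.9 ± 16.6) and Lamc3 (42.0 ± 12.5). Monocytes led 6 members of the leukocyte set, with Itgb2 at 177 ± 110.5 (n = 5) about level with the 167 ± 52.4 of macrophages, Itgax at 73.4 ± 48.9 and Itga4 at 44.7 ± 19.9.

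**Figure D4:**
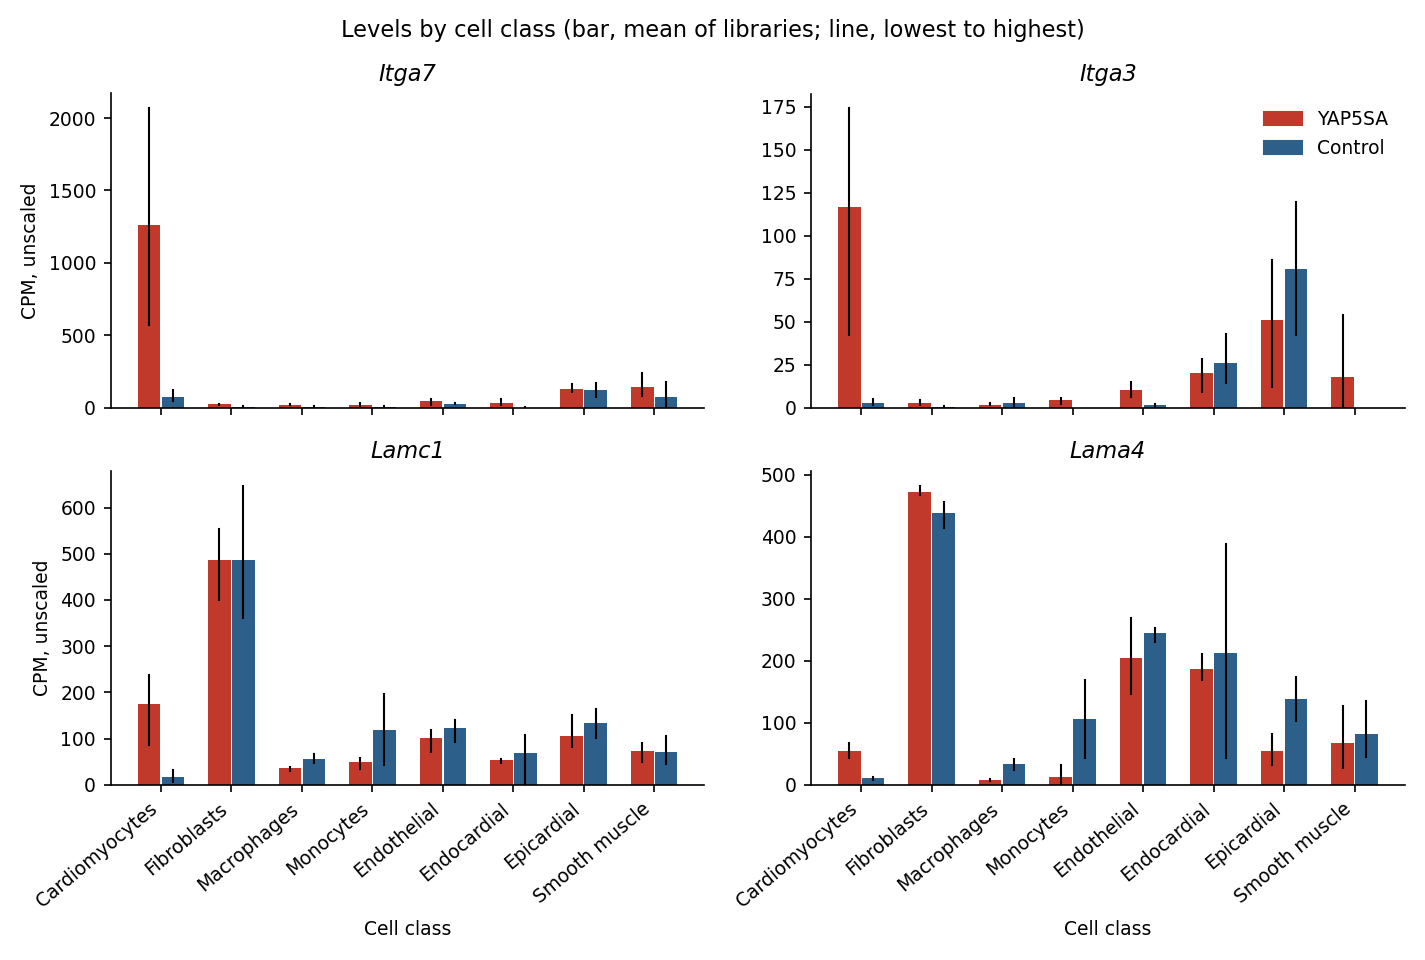
Mean level (unscaled CPM) of Itga7, Itga3, Lamc1 and Lama4 in the 8 cell classes, YAP5SA (red) left of Control (blue); bars are means of 2 or 3 libraries and lines run from the lowest to the highest library. The tall red bars of Itga7 (1259 CPM) and Itga3 (116.4 CPM) stand in cardiomyocytes, while Lamc1 and Lama4 are highest in fibroblasts of both genotypes.

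The same contrast of genotypes was then made in each other class. Of 7 classes other than cardiomyocytes, edgeR called a member in fibroblasts alone, where 1 of 18 tested passed, against 1.45% of all genes higher and 0.762% lower. In macrophages 0 of 18 passed and in endothelial cells 0 of 10, with 4 and 0 members at an unadjusted p under 0.05; no gene at all was called in either class, although 1184 of 11755 and 540 of 5360 genes had such a p. Monocytes (7 members tested), endocardial (3), epicardial (4) and smooth muscle cells (1) gave 0 calls too, and no gene at all was called in them. There 1, 1, 0 and 0 members had an unadjusted p under 0.05, against 279 of 3508, 105 of 1989, 107 of 1818 and 45 of 993 genes. Among the tested clusters other than those of cardiomyocytes, a member was called in Mac4 alone, where 1 of 15 passed, against 0.999% of genes higher and 0.683% lower. No member was called in CF4 (1.97% of genes higher, 0.646% lower), Mac1 (0.509% and 0.343%) or Mac2 (0.0264% and 0.0396%), nor in the clusters in which no gene passed. In CF4, Mac1 and Mac2, 0, 3 and 1 members had an unadjusted p under 0.05, against 633 of 7276, 778 of 8455 and 614 of 7584 genes. The cluster Mac3 had too few Control cells to be tested.

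Both calls were Itgam. In macrophages it had 583, 624 and 8.34 unscaled CPM in YAP5SA libraries, against 244 and 0 CPM in Control tissue-2 and tissue-3. The libraries that do not join names, YAP5SA enriched and Control tissue-3, were far below the others in both genotypes, so that the naming of overlapping genes moves with this value. In Mac4 the levels were 459, 500 and 8.35 CPM, against 215 and 0 CPM, at 1.69 on the log2 scale (SE 0.45, edgeR adjusted p = 0.0196), and no call was left when any YAP5SA library was left out. In fibroblasts Itgam had 15.7, 23.3 and 2.18 CPM, against 5.93, 0 and 0 CPM (2.10, SE 0.62, edgeR adjusted p = 0.0374), where Control enriched had 10 fibroblasts in all, and it did not pass with at least 30 cells, with RLE factors, with library totals or with joined names kept apart.

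Whether the genotype effect differed between cardiomyocytes and another class was tested with the class by genotype term, with the library as a block. Against endothelial cells, 5 of 20 members tested differed, against 6.93% of genes higher and 7.36% lower. Against fibroblasts 6 of 26 differed (10.4% of genes higher and 6.99% lower), and against macrophages 4 of 25 (5.59% higher and 7.26% lower). In each of these 15 the effect was higher in cardiomyocytes.

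Lamc1 and Itga1 differed from all 3 classes. The difference of Lamc1 was 3.07 (SE 0.44, edgeR adjusted p = 2.03e-05) against endothelial cells, 2.69 (SE 0.48, adjusted p = 0.000370) against macrophages and 2.40 (SE 0.53, adjusted p = 0.000273) against fibroblasts. Itga1 differed by 2.31, 3.03 and 1.40 in the same order (edgeR adjusted p = 0.000352, 0.0149 and 0.0312). Against fibroblasts the Itga1 call was kept in 3 alternative settings and lost in 7. Control macrophages held only 8 UMIs of Itga1. Itga7 differed from endothelial cells (2.45, SE 0.60, edgeR adjusted p = 0.00709) but was not called against fibroblasts (1.70, SE 0.70, adjusted p = 0.0712) or macrophages (0.999, SE 0.88, adjusted p = 0.497). Its level in those 2 classes was low. YAP5SA fibroblasts held 23.4 ± 1.86 and YAP5SA macrophages 22.8 ± 5.05 unscaled CPM of Itga7 (SD, n = 3 libraries each). The Control side rested on 32 UMIs in fibroblasts and 6 in macrophages. Itga3, with 2 UMIs in Control fibroblasts, was called against none of the 3 classes, at 2.86 (SE 1.01, edgeR adjusted p = 0.0533) against endothelial cells.

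Itgav and Itgb5 differed from fibroblasts by 1.70 and 1.65 (edgeR adjusted p = 0.00654 and 0.00651). Lama4 differed from macrophages by 3.39 and from endothelial cells by 1.76 (edgeR adjusted p = 8.55e-05 and 0.00285), and in macrophages its own change was -1.91 (SE 0.51, adjusted p = 0.230). Lamb1 differed from macrophages by 2.77 (edgeR adjusted p = 0.00110) with no call in either class. The change of Lamb1 in cardiomyocytes was small, as given with the laminin chains. In macrophages Lamb1 had 7.96 ± 2.55 unscaled CPM in YAP5SA (SD, n = 3 libraries). The 2 Control libraries with macrophages had 16.8 and 89.7, on 26 UMIs. Itga6 differed from endothelial cells by 1.80 (edgeR adjusted p = 0.00853). Itga8 differed from fibroblasts by 6.24 (SE 1.26, edgeR adjusted p = 3.98e-05), a fitted value that rests on 1 UMI in Control cardiomyocytes.

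The genes that work beside the members were read in cardiomyocytes from lists put together with results of these data known; their counts stand beside 13.9% of all genes higher and 12.6% lower. Of the adaptors that tie integrins to actin, 10 of 23 tested were higher and 1 lower (median log2 fold change 1.11). Tns3, a tensin that binds integrin tails, had 70.0, 60.6 and 39.4 CPM in YAP5SA libraries, against 6.64, 3.97 and 2.98 CPM in Control libraries (3.65, SE 0.33, edgeR adjusted p = 0.00220). Parva (parvin of the Ilk complex), Bcar1 (the p130Cas scaffold) and Flna (an actin crosslinker that binds beta tails) rose by 2.23, 2.08 and 3.60 (edgeR adjusted p = 0.00982, 0.0132 and 0.0147). The adaptor that fell was Itgb1bp2, melusin, a muscle protein that binds the tail of Itgb1: it had 102, 84.1 and 126 CPM in YAP5SA libraries, against 154, 299 and 316 CPM in Control libraries (-1.30, SE 0.35, edgeR adjusted p = 0.0334).

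Of the other basement membrane genes, 5 of 10 tested were higher and 0 lower (median 2.3003), against 13.9% and 12.6% of all genes. Hspg2, perlecan, a proteoglycan of basement membranes, had 251, 282 and 120.3 CPM in YAP5SA libraries, against 55.4, 27.8 and 24.8 CPM in Control libraries (log2 change 2.55, SE 0.36, edgeR adjusted p = 0.00628). Nid2, which links laminin to type IV collagen, Ntn4, a netrin that binds laminin gamma chains, and Agrn, agrin, which ties laminin to dystroglycan, rose by 3.62, 2.57 and 2.56 (edgeR adjusted p = 0.00936, 0.00381 and 0.0112). Of other integrin ligands, 10 of 21 tested were higher and 0 lower (median 2.10), against the same 13.9% and 12.6%. They were led by Thbs1, thrombospondin, with 205, 307 and 91.3 CPM in YAP5SA libraries against 9.62, 6.27 and 0.993 CPM in Control libraries (5.31, SE 0.44, edgeR adjusted p = 0.00220), Icam1 (3.35, adjusted p = 0.00478), Fbln5 (3.71, adjusted p = 0.00742) and Jam2 (2.21, adjusted p = 0.00921).

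Of the dystroglycan complex, the other laminin receptor of heart muscle, 4 of 18 tested were higher and 3 lower (median 0.05), near the 13.9% and 12.6% of all genes, so the counts show nothing about the complex as a group. Its sarcoglycan Sgca, of the group that braces dystroglycan in muscle, fell. It had 34.3, 25.8 and 55.5 CPM in YAP5SA libraries, against 140.3, 194 and 201 CPM in Control libraries (log2 change -2.26, SE 0.32, edgeR adjusted p = 0.00611). Utrn, utrophin, the fetal relative of dystrophin, and Bcam, a receptor for laminins with Lama5, rose by 1.80 and 2.32 (edgeR adjusted p = 0.00936 and 0.00778). Without the cells of YAP5SAcm none of the 4 lists kept a call in edgeR's test. The part of smooth muscle RNA in these lists was not tested.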

How the data were processed

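The deposited table of raw data gives UMI counts per feature and cell, and every value is a whole number. A second deposited table assigns each cell to its library and to 1 of 17 clusters of the authors, and holds percent.mito, deposited as a fraction of the cell's UMIs and printed here as a percent. The submitters' processing notes name Picard, STAR and Seurat 2.3.4; genome build and annotation are not given in the sources used here. The scaled values were left out. The 856 joined names were merged with the genes they hold (703 families, 21281 features), and 1227 features present in only 1 of the naming schemes were kept out of the tests (0.159% and 0.238% of UMIs). Counts were summed per library and class or cluster; a library entered with at least 10 cells and a unit was tested with at least 2 libraries per genotype. Tests used edgeR 4.0.16 in R 4.3.3 (TMM, filterByExpr by genotype, robust quasi-likelihood F test, preparation and genotype as terms), adjusted over all genes tested; DESeq2 1.42.0 was an alternative. The steps were tested on simulated data. Positive values mean higher in YAP5SA.

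Some members and list genes are not reported here. The other tested members are named in cardiomyocytes, the members past an adjusted p of 0.05 elsewhere, and of each further list the 4 tested genes with the smallest p; Itgb1bp2 and the library values of single classes were added after their values were seen. The members and lists were chosen with earlier results of these data known. Total UMIs per library limit precision; a count of 0 allows up to 3 counts. No doublets were removed. Alternatives were other scalings, DESeq2, no filter, genotype as the only term, tissue libraries alone, at least 30 cells (in classes other than cardiomyocytes added after seeing the data), cells without YAP5SAcm, cells lacking macrophage and fibroblast marker UMIs, joined names kept apart, libraries that join names alone, and each library left out. Promoters were matched by symbol, with a chromosome left out for the members but not for the set of all promoters. Other members had no promoter listed, Itga7, Lamc1 and Lama4 among them, so that 23 of 36 members were left.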

Additional observations from a re-analysis of the deposited data

Results flagged for a closer look

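For several pairs of a member and a cell class, the genotype effect differed between cardiomyocytes and the other class in edgeR's test of the class by genotype term, and each difference (log2, cardiomyocytes minus the other class) was positive. Against fibroblasts these were Itga1 (1.40, a call lost in 7 alternative settings), Itga8 (6.24), Itgav (1.70), Itgb5 (1.65) and Lamc1 (2.40). Against macrophages they were Itga1 (3.03), Lama4 (3.39), Lamb1 (2.77) and Lamc1 (2.69). Against endothelial cells they were Itga1 (2.31), Itga6 (1.80), Itga7 (2.45), Lama4 (1.76) and Lamc1 (3.07). Macrophages of Control hearts came from 2 libraries with 601 and 148 cells, and Control enriched gave 10 fibroblasts.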

How the results depend on the processing

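The 9 members called in cardiomyocytes kept their direction in every alternative that tested them, with 114 values on the same side of the threshold and 36 no longer past it, and the cause of the lost calls was not tested. The count of members higher in cardiomyocytes was 0 without the cluster YAP5SAcm, against 0.18% of genes higher. It ran from 1 to 11 when 1 library was left out, against 1.67% to 20.6% of genes. Of the members that were not called, Itga9, Itgb1, Itgb6, Lama2, Lama5, Lamb1, Lamb2 and Lamb3 changed sign in some settings. Itga5, Itga6 and Itgam kept theirs, and passed the threshold in 2, 6 and 4 alternatives. With library totals alone Itga9 stood at 0.76, Lama2 at 0.69, Lama5 at 0.65, Lamb2 at 0.82 and Lamb3 at 0.50. In the tissue libraries alone Itga9 was 0.072, Itgb1 -0.14, Lama2 0.066, Lama5 0.53, Lamb2 0.30 and Lamb3 0.45. In the libraries that join names alone Itgb1 was -0.62, Lama2 1.21, Lama5 0.45, Lamb2 0.59 and Lamb3 2.64. Without YAP5SAcm Itga9 was 0.51, Itgb6 -0.72 and Lamb2 0.16, and in cells with no UMI of macrophage and fibroblast markers Itga9 was 0.11 and Itgb6 -0.32. Leaving out each library in turn gave -0.24 to 0.078 for Itga9, -0.18 to 0.50 for Itgb1, -0.27 to 1.07 for Itgb6, -0.68 to 0.26 for Lama2, -0.52 to 0.54 for Lama5, -0.093 to 0.60 for Lamb1, -0.33 to 0.31 for Lamb2 and -1.21 to 0.46 for Lamb3. Of these, the signs turned without Control enriched (Itga9 0.039, Itgb1 -0.16, Lama2 0.0033, Lama5 0.50, Lamb2 0.25, Lamb3 0.39), without YAP5SA enriched (Itgb1 -0.13, Lama2 0.075) and without Control tissue-3 (Lamb3 0.033), besides the ends of the ranges.

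Counts of members called elsewhere also moved. The share of all genes called was not computed in these settings, so the counts show nothing about the members as a group. In cardiomyocytes, library totals alone moved the share of all genes called higher from 13.9% to 37.7%. In fibroblasts the count was 0 with RLE size factors, with library totals alone, with at least 30 cells and with joined names kept apart. It was 2 in macrophages and 3 in monocytes with no filter, and with library totals alone 1 in CM2 and 5 in YAP5SAcm. With library totals alone the genotype effect differed for 13 members against fibroblasts, 9 against macrophages and 12 against endothelial cells. Without 1 library the counts were 0 to 3 in fibroblasts, 0 to 5 in macrophages, 0 to 6 in monocytes, 0 to 2 in CF2, CF3, Mac2 and Mac4, 0 to 3 in CM1 and YAP5SAcm, 0 to 1 in CM3, 0 to 4 in Mac1, 2 to 6 for differences against fibroblasts and 5 to 10 against endothelial cells. No paired analysis was possible because the numbers of the YAP5SA tissue libraries in the table of cells are not those of the labels, so the replicate block was not run. Depth limits the 16 members with at most 29 UMIs in cardiomyocytes.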
